A study of Mus musculus with 6 samples.

Results

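The genes studied here encode the subunits of the transcription factor AP-1: the Fos family (Fos, Fosb, Fosl1, Fosl2), the Jun family (Jun, Junb, Jund) and the related subunits Atf3, Batf and Batf3. They were taken by gene symbol from the deposited table, and all 10 were found among its 18824 genes. RNA came from skin of C57BL/6j mice of the MC903 model, which imitates atopic dermatitis by putting a vitamin D analogue on the skin. The 3 libraries of the group CCR3 (replicates 1, 2 and 4) were treated with a compound, and the 3 libraries of the group VEH (replicates 1, 2 and 4) with vehicle. Which compound stands behind the name CCR3 is not settled: the title of the series gives SB328437, a CCR3 antagonist, but the treatment field of the same libraries gives SC144, a gp130 inhibitor. The sources used here give no sex, age, dose or time of treatment. All values are from the MC903 model, since untreated skin was not analysed here.

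AP-1 is a dimer of basic leucine zipper proteins that binds the DNA sequence known as the TPA response element. Fos proteins do not form stable dimers with one another and need a Jun partner, whereas Jun proteins also pair among themselves, and the subunits differ in how strongly they activate or repress. Fos, Fosb, Jun, Junb and Atf3 are immediate early genes, switched on within minutes by growth factors, cytokines, stress or wounding, also by the handling of tissue. In skin, AP-1 has roles in keratinocyte growth and differentiation and in the expression of cytokine and matrix protease genes. Batf and Batf3 are short AP-1 proteins of immune cells that pair with Jun proteins and cooperate with IRF factors.

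The 250 bases before the RefSeq start (GRCm38.p6) of the genes that showed the largest differences, Fosb and Atf3, are shown first, and those of Fos and Jun, the founding subunits, are shown for comparison. They span chr7:19310046-19310295 on the minus strand for Fosb, chr1:191183334-191183583 on the minus strand for Atf3, chr12:85473640-85473889 on the plus strand for Fos and chr4:95052223-95052472 on the minus strand for Jun. Each is written 5′ to 3′ on the strand of its gene and ends at the base before the start. Capitals mark TGACG on either strand, the core of the cAMP response element, and in Jun the site TGACATCA.
Fosb: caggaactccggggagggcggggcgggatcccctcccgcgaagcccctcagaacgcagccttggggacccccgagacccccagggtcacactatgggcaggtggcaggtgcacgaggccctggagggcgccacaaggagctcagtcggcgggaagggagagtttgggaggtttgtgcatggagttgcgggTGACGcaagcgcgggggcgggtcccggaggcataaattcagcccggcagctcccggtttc
Atf3: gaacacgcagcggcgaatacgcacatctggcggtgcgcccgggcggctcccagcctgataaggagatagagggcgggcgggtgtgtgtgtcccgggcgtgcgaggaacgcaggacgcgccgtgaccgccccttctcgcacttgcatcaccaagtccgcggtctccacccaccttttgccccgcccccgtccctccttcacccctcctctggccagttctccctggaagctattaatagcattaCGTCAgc
Fos: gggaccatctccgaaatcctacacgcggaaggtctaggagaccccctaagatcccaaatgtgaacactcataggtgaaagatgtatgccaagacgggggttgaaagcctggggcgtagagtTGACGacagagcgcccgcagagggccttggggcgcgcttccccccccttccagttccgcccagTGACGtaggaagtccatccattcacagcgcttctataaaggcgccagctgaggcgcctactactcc
Jun: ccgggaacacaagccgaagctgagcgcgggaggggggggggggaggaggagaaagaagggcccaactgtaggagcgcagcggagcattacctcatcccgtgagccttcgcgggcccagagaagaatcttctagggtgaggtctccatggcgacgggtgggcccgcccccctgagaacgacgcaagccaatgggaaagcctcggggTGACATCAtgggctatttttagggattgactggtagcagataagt

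TGACG, searched on both strands, was present in the window of 5 of the 9 subunit genes with a promoter in the table (Fos, Fosb, Junb, Atf3 and Batf) and in 17.8% of all 32851 promoter windows of the same length. In Fosb it lay 60 bases and in Atf3 7 bases before the start, counted to its first base, and Fos held it at 129 and 66 bases. TGACATCA was found 45 bases before the start of Jun and in 2.93% of all windows. The full elements TGACTCA and TGACGTCA, the second of which contains TGACG, and the CArG box of serum response factor were in none of the 9 windows and in 4.46%, 1.55% and 1.47% of all windows. These matches describe letters in the reference and say nothing on binding. Sequence farther upstream was not searched, so absence from a window does not mean that a gene lacks the element. Fos and Batf lie on chromosome 12 with 1 protein-coding gene, Jdp2, starting between them, and Batf3 and Atf3 on chromosome 1 with 1 such gene between them.

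Expression was deposited as FPKM, fragments scaled to transcript length and to the mapped reads of the library. FPKM summed to between 517764 and 553305 per library, and 12919 to 13054 genes reached 1 FPKM, but the table holds no counts and the depth is unknown. The labels do not tie replicates to separate mice, and the p-values cover only the spread between libraries, which may be technical. Krt14, the keratin gene of basal keratinocytes, was high in every library, at 4157 to 5478 FPKM in CCR3 skin and 4203 to 4994 FPKM in VEH skin.

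The comparison of CCR3 with VEH asked how the AP-1 transcripts differed in inflamed skin after treatment. By limma on log2(FPKM + 1), a scale that understates changes of low genes, with Benjamini-Hochberg adjustment over all 13063 tested genes, 4 of the 10 subunit genes fell in CCR3 (Fosb, Atf3, Jund and Batf3) and none rose. Over all tested genes 2.37% were called lower and 1.36% higher. In 7 of 10 subunit genes the 3 CCR3 values lay below all VEH values, as in 18.3% of tested genes, and none lay above, as in 10.4%. The log2 fold change was negative in 9 of 10, against 59.8% of tested genes, with a median of -0.46 against -0.04. At an unadjusted p under 0.05, 8 of 10 were lower and none higher, against 15.1% and 8.03% of tested genes. When libraries were brought to equal FPKM sums, 2 subunit genes were called lower (Fosb and Atf3), and the split over all genes was 173 lower and 158 higher in place of 310 and 178. With log values centred on each library's median, the same 4 were called, and the split was 261 lower and 230 higher. Without a filter on low values, limma called none of the 4 and 92 genes in all, while 7 subunit genes were lower and none was higher at an unadjusted p under 0.05, against 12.2% and 6.47% of all genes.

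**Figure D1:**
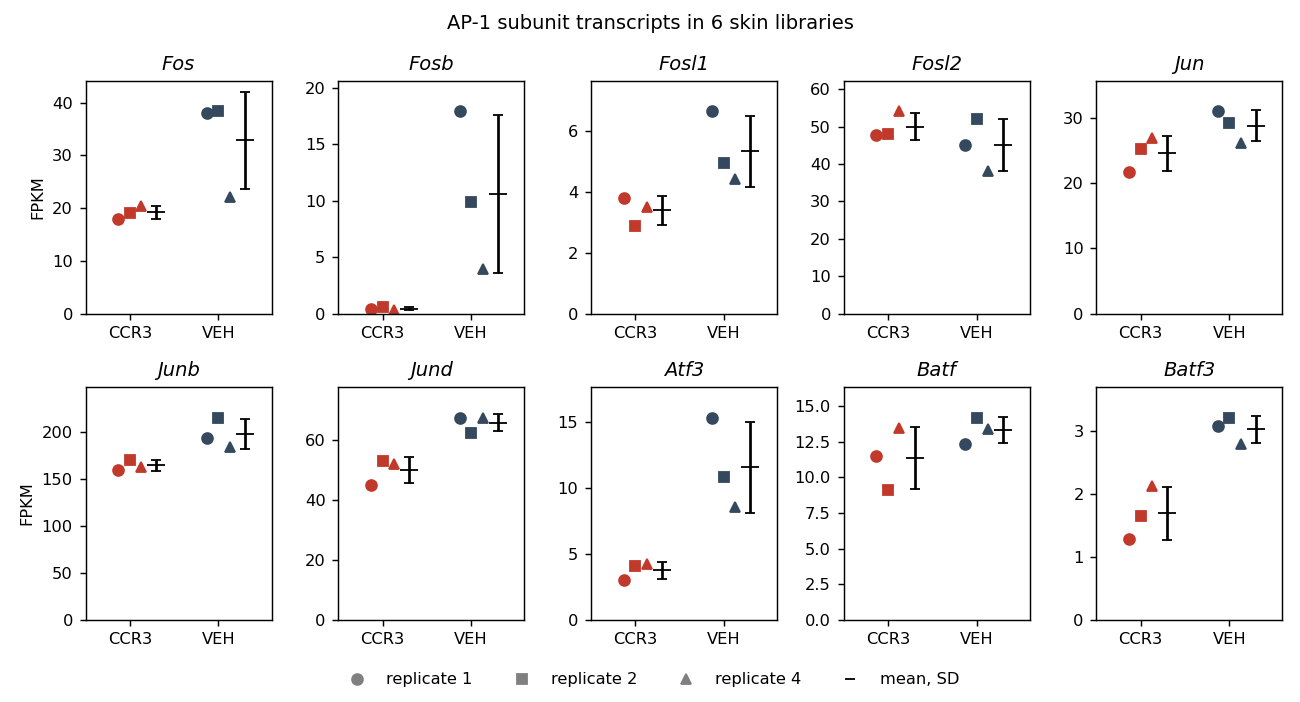
FPKM (vertical axes, each from 0) of each AP-1 subunit gene in the 3 CCR3 libraries (red, left) and the 3 VEH libraries (dark, right), with symbols for the replicate number and a bar for the mean and SD. The groups do not overlap for 7 genes, and the wide VEH spread of Fosb (3.95 to 17.91 FPKM) contrasts with its CCR3 values of 0.33 to 0.60 FPKM.

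Among the Fos proteins, which supply the partner of Jun in the classical dimer, Fosb showed the largest difference of all 10 genes. FosB is an immediate early member of the family with an activation domain. Fosb (Entrez gene 14282) was at 0.38, 0.60 and 0.33 FPKM in CCR3 replicates 1, 2 and 4, against 17.91, 9.89 and 3.95 FPKM in VEH skin replicates 1, 2 and 4. All CCR3 libraries were below 1 FPKM and all VEH libraries above 3 FPKM, and within VEH the highest value was 4.53 times the lowest. Fosb averaged 0.437 ± 0.144 FPKM in CCR3 skin and 10.6 ± 7.01 FPKM in VEH skin (SD, n = 3 each), and the VEH mean was 24.2 times the CCR3 mean. The log2 fold change was -2.81 ± 0.405 (SE, limma adjusted p = 0.0137), and -4.10 with a pseudocount of 0.1 in place of 1. Fosb passed the filter on low values through its VEH libraries alone, whereas the other 9 genes reached 1 FPKM in all 6 libraries. The call was lost without CCR3 replicate 1 or VEH replicate 2 (adjusted p = 0.0545 in each case). The call was also lost when limma was run without the filter (adjusted p = 0.0740).

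Fos itself, the best known immediate early gene, was at 18.03, 19.13 and 20.48 FPKM in CCR3 skin and at 38.02, 38.36 and 22.16 FPKM in VEH skin. VEH replicates 1 and 2 stood well above every CCR3 library, while VEH replicate 4 was just above the highest CCR3 library. The log2 fold change was -0.70 ± 0.189 (SE) and did not pass (limma adjusted p = 0.0824). Without VEH replicate 4 it was -0.96 and passed (adjusted p = 0.0113). Fosl1 (Fra-1), which lacks the activation domain of Fos and is itself a target of AP-1, was at 3.80, 2.89 and 3.50 FPKM in CCR3 skin and 6.66, 4.95 and 4.42 FPKM in VEH skin. Its groups did not overlap, and it did not pass (-0.52 ± 0.139, adjusted p = 0.0819). Fosl2 (Fra-2), a slower and longer lasting member of the family, was the only one of the 10 genes with a positive log2 fold change. It was at 47.77, 48.02 and 54.07 FPKM in CCR3 skin and 45.13, 52.13 and 38.07 FPKM in VEH skin, and these groups overlapped. The difference of 0.15 did not pass (adjusted p = 0.440), with a 95% interval from -0.11 to 0.41 on the log2 scale.

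The Jun proteins are the obligate part of AP-1, and their transcripts differed less than that of Fosb. Jund, usually the steady member that is expressed without stimulation, was at 44.99, 52.97 and 52.15 FPKM in CCR3 skin and 67.56, 62.49 and 67.40 FPKM in VEH skin. The groups were well apart, and Jund fell by 0.39 ± 0.079 on the log2 scale (SE, limma adjusted p = 0.0385), the smallest difference among the 4 called. Junb, known as a brake on proliferation driven by Jun, was the most abundant subunit, at 160.12, 170.95 and 163.10 FPKM in CCR3 skin and 193.60, 215.83 and 184.40 FPKM in VEH skin. Its groups did not overlap, but it did not pass (-0.26 ± 0.078, adjusted p = 0.105). Jun was at 21.70, 25.23 and 26.93 FPKM in CCR3 skin and 31.03, 29.28 and 26.23 FPKM in VEH skin. CCR3 replicate 4 was above VEH replicate 4, and the difference of -0.22 did not pass (adjusted p = 0.212, 95% interval -0.44 to -0.0023, which is not adjusted). Jund kept its call without CCR3 replicate 2 or 4 and lost it without each of the other libraries (adjusted p up to 0.167, without VEH replicate 1) and with equal FPKM sums (0.0669).

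Atf3 encodes a stress-induced repressor that pairs with Jun and curbs cytokine transcription in macrophages. Of the 4 called subunit genes, Atf3 alone kept its call whichever library was left out. It lost the call with the replicate number added to the model (limma adjusted p = 0.0515) and without a filter on low values (0.0661). Atf3 (Entrez gene 11910) was at 3.03, 4.06 and 4.22 FPKM in CCR3 skin and 15.32, 10.82 and 8.52 FPKM in VEH skin. The lowest VEH library was above the highest CCR3 library, and VEH replicate 1 was the highest and VEH replicate 4 the lowest of its group, as for Fosb. Atf3 averaged 3.77 ± 0.646 FPKM in CCR3 skin and 11.6 ± 3.46 FPKM in VEH skin (SD, n = 3 each). The log2 fold change was -1.37 ± 0.189 (SE, limma adjusted p = 0.0126), and with 1 library left out it ran from -1.55 to -1.16, with adjusted p between 0.0112 and 0.0499.

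Batf3, which cross-presenting dendritic cells need to develop, was at 1.29, 1.65 and 2.13 FPKM in CCR3 skin and 3.07, 3.21 and 2.79 FPKM in VEH skin. The groups did not overlap, and Batf3 fell by 0.59 ± 0.119 on the log2 scale (SE, limma adjusted p = 0.0385). It kept its call without CCR3 replicate 4 and lost it without each other library (up to 0.154, without VEH replicate 1) and with equal FPKM sums (0.0609). Batf, needed by helper T cells of the Th17 and follicular type, was at 11.47, 9.11 and 13.48 FPKM in CCR3 skin and 12.36, 14.20 and 13.37 FPKM in VEH skin. These groups overlapped, and the difference of -0.23 did not pass (adjusted p = 0.316, 95% interval -0.52 to 0.06).

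**Figure D2:**
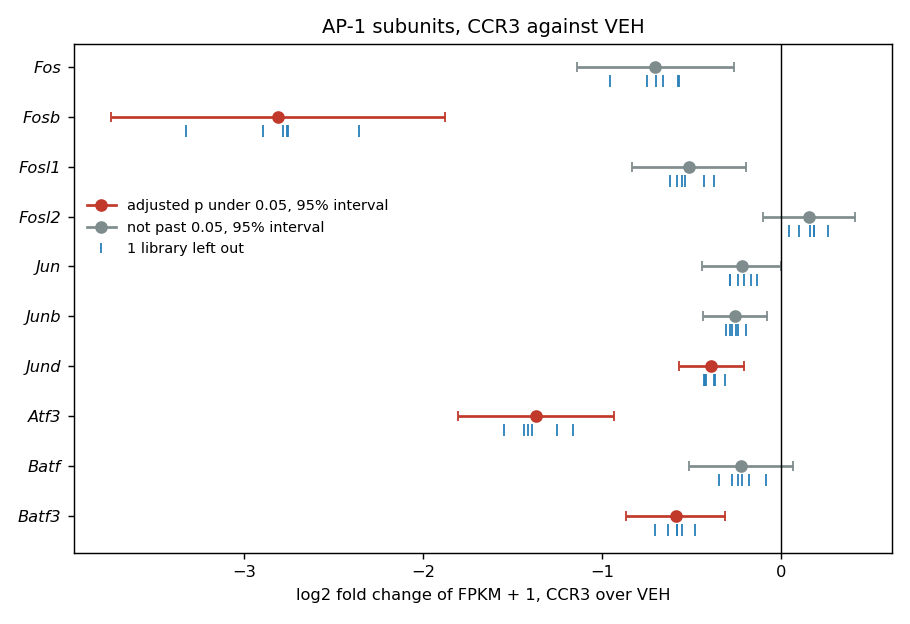
Log2 fold change of FPKM + 1 (CCR3 over VEH, horizontal axis) for each AP-1 subunit gene, with its 95% interval (limma), in red where the adjusted p was under 0.05, and blue ticks for the estimate with 1 library left out. Fosb (-2.81) and Atf3 (-1.37) lie far from the other genes, and Fosl2 (0.15) alone lies above 0.

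In whole skin, fewer cells of a type and less RNA per cell cannot be told apart, so marker lists are set beside these values. Over all tested genes limma called 2.37% lower and 1.36% higher. Of 5 tested T cell markers 3 were called lower (Cd3g, Cd28 and Cd4), and the list summed to 23.2 to 29.1 FPKM in CCR3 against 37.9 to 41.4 FPKM in VEH skin. Each of the 3 kept its call without 2 of the 6 libraries in turn, and none was called without the filter. There 3 of the 5 markers were lower at an unadjusted p under 0.05, against 12.2% of all genes. Dendritic cell markers had none of 5 called by limma and summed to 37.3 to 50.1 FPKM in CCR3 against 40.7 to 49.0 FPKM in VEH skin, with 0 of 5 at an unadjusted p under 0.05. Xcr1 and Clec9a, the defining markers of the cells that need Batf3, lay under the filter on low values. Xcr1 was at 0.13 to 0.15 FPKM in CCR3 skin and 0.27 to 0.29 FPKM in VEH skin, and Clec9a at 0.61 to 0.73 FPKM in CCR3 skin and 0.80 to 0.90 FPKM in VEH skin. When limma was run without the filter, Xcr1 was called lower at these levels (log2 fold change -0.18, adjusted p = 0.0396) and Clec9a was not (adjusted p = 0.204). Macrophage and monocyte markers summed to 589.1 to 763.5 FPKM in CCR3 against 649.2 to 672.9 FPKM in VEH skin, with none of 6 called and 2 at an unadjusted p under 0.05, Ly6c2 with a log2 fold change of -0.41 and Mrc1 with 0.27. Neutrophil markers gave none of 5, basal keratinocyte markers none of 5, differentiated keratinocyte markers none of 5, fibroblast markers none of 4 and skeletal muscle markers none of 4, with 1, 2, 1, 0 and 0 at an unadjusted p under 0.05. These 4 genes had positive log2 fold changes, 0.51 for the neutrophil gene Mmp8, 0.38 for Trp63 and 0.28 for Itgb4 of basal keratinocytes, and 0.65 for Flg2 of differentiated keratinocytes. Over all tested genes, 59.8% had a negative log2 fold change. The log2 fold change was positive for 5 of 5 basal keratinocyte markers (median 0.21), 4 of 5 neutrophil markers (median 0.25) and 4 of 5 differentiated keratinocyte markers (median 0.28, or -0.049 without CCR3 replicate 2). Of skeletal muscle markers 4 of 4 were positive (0 of 4 without VEH replicate 2). Positive were 2 of 5 dendritic cell, 1 of 6 macrophage and monocyte and 1 of 3 endothelial markers. T cell markers had 0 of 5 positive and fibroblast markers 0 of 4 (3 of 4 without CCR3 replicate 2). The median of neutrophil markers was 0.091 without CCR3 replicate 4, and that of basal keratinocyte markers 0.10 without CCR3 replicate 2. Endothelial markers gave 1 lower of 3 (Kdr, called without 1 of the 6 libraries in turn and not with equal FPKM sums, adjusted p = 0.0847). Summed basal keratinocyte markers overlapped, at 4990 to 6748 FPKM in CCR3 against 4972 to 5962 FPKM in VEH skin, as did those of differentiated keratinocytes, at 1191 to 2922 FPKM in CCR3 against 1374 to 1397 FPKM in VEH skin. The part of these cell types in the AP-1 values was not tested.

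FPKM is scaled to length, so levels of the subunits were set side by side. The annotation and counting behind the values are not given, so comparisons of level between genes are approximate. In CCR3 the order was Junb, Jund, Fosl2, Jun, Fos, Batf, Atf3, Fosl1, Batf3 and Fosb, and the ranges of Jund and Fosl2 and those of Atf3 and Fosl1 overlapped. In VEH the order was Junb, Jund, Fosl2, Fos, Jun, Batf, Atf3, Fosb, Fosl1 and Batf3. There the ranges of neighbours overlapped from Fosl2 through Fos to Jun, and from Batf through Atf3 and Fosb to Fosl1. Junb made up 50.1% ± 1.87 of the summed subunit FPKM in CCR3 skin and 47.8% ± 2.53 in VEH (SD, n = 3 each). The summed FPKM of all 10 genes was 312.6, 334.6 and 340.4 in CCR3 and 430.7, 441.2 and 371.3 in VEH.

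**Figure D3:**
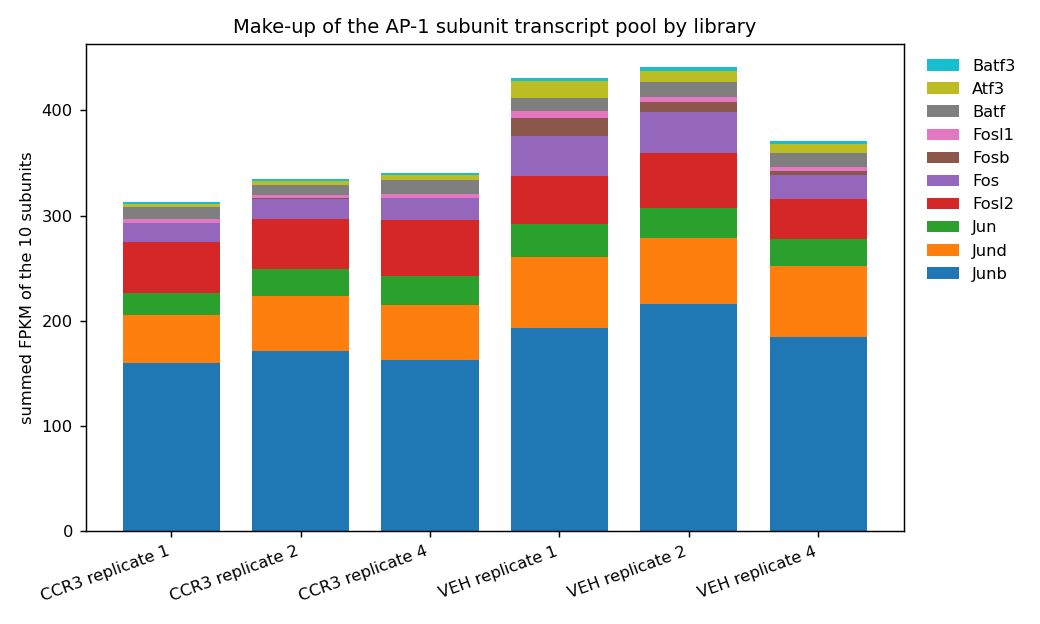
Stacked FPKM of the 10 subunit genes (vertical axis, from 0) in each library, with CCR3 libraries on the left and VEH libraries on the right. Junb fills about the same share of every bar, the Fosb band (brown) is hardly visible in CCR3, and VEH replicate 4 has the smallest VEH sum (371.3 FPKM).

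Within the Fos family the make-up differed. Fosl2 held 68.4% ± 0.519 of the family's FPKM in CCR3 skin and 49.0% ± 6.82 in VEH (SD, n = 3 each). Fos held 26.3% ± 0.680 in CCR3 and 34.7% ± 2.13 in VEH, and Fosb 0.604% ± 0.221 in CCR3 and 10.6% ± 5.53 in VEH. The share of Fosl2 was 68.0% to 69.0% in CCR3 libraries, above its 41.9% to 55.5% in VEH libraries. These shares were not tested, since their members were chosen with results known. Ratios within a library do not depend on scaling between libraries, except through the 0.1 FPKM added to each value here. This constant weighs most for Fosb in CCR3 skin, at 0.33 to 0.60 FPKM. The groups were compared for 8 ratios by a 2-sided exact permutation test. With 3 against 3 libraries this test cannot give a p below 0.1. The ratios are between the same members, chosen with results known, so their p-values are descriptions. The log2 ratio of Fosb to Fos (0.1 FPKM added to each) was -5.20 ± 0.402 in CCR3 and -1.83 ± 0.696 in VEH (SD, n = 3 each). That of Atf3 to Jun was -2.68 ± 0.103 in CCR3 and -1.35 ± 0.306 in VEH, and that of Fosl2 to Fosl1 was 3.85 ± 0.204 in CCR3 and 3.06 ± 0.314 in VEH. For these and for Fos to Jun, Jund to Jun and Batf3 to Batf, the groups were separate (exact permutation p = 0.1, adjusted over 8 ratios 0.133). The ratio of Junb to Jun was 2.74 ± 0.142 in CCR3 and 2.77 ± 0.124 in VEH (exact permutation p = 0.7), and that of Fos to Jund overlapped as well (p = 0.4).

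Within groups, the same libraries held the low values of most subunit genes, by differing amounts. VEH replicate 4 held the lowest VEH value of 8 of the 10 genes, all but Jund and Batf, whereas it was the lowest VEH library for 37.0% of all tested genes. CCR3 replicate 1 was the lowest CCR3 library for 7 of 10 genes, against 30.8% of all tested genes. In VEH replicate 4 the difference from the VEH mean of log2(FPKM + 1) was -1.02 for Fosb and -0.51 for Fos, against -0.13 for Jun and -0.10 for Junb.

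Other genes of the pathway were taken from lists chosen with earlier results of these data known, so their counts are descriptions. Of 21 tested kinases and factors upstream of Fos and Jun, 1 fell and none rose (median log2 fold change -0.01), against 2.37% and 1.36% of all tested genes. It was Srf, the serum response factor that drives Fos and Egr1 transcription, at 9.29, 10.46 and 11.41 FPKM in CCR3 skin and 14.75, 15.04 and 14.24 FPKM in VEH skin (limma adjusted p = 0.0252), and it kept its call without 2 of the 6 libraries in turn but not with equal FPKM sums (0.0512). Elk4, a partner of Srf, averaged 6.58 FPKM in CCR3 skin and 4.56 FPKM in VEH skin, and did not pass (adjusted p = 0.0542, or 0.0380 with log values centred on each library's median), nor did Map3k5 (adjusted p = 0.191). Of 19 other basic leucine zipper genes none was called by limma (median -0.03). At an unadjusted p under 0.05 were 6 of them, 4 lower and 2 higher, against 15.1% and 8.03% of all tested genes. Among those with the smallest p were Cebpd (77.8 FPKM in CCR3, 63.6 FPKM in VEH skin) and Atf7 (10.3 FPKM in CCR3, 8.59 FPKM in VEH skin). Jdp2, the gene between Fos and Batf, was at 20.53 to 33.93 FPKM in CCR3 skin and 22.29 to 23.30 FPKM in VEH skin. It was picked for its position, after its values were seen.

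Of 21 tested immediate early genes outside the AP-1 subunits, 5 fell and 1 rose (median -0.27), against 2.37% and 1.36% of all tested genes. Ier5 was at 21.80, 21.52 and 21.65 FPKM in CCR3 skin and 31.36, 31.72 and 29.35 FPKM in VEH skin (limma adjusted p = 0.00795). Nr4a2, a nuclear receptor gene, averaged 4.06 FPKM in CCR3 skin and 6.92 FPKM in VEH skin (adjusted p = 0.0107), and Ier3, Egr2 and Egr1 were the other genes that fell. Ccn2, which encodes connective tissue growth factor, rose to 449.6 FPKM in CCR3, against 261.8 FPKM in VEH skin (adjusted p = 0.00999). Without VEH replicate 1 limma called none of these 21 genes lower, with 9 lower at an unadjusted p under 0.05. It called 3 lower without CCR3 replicate 1 and 2 without VEH replicate 2. Over all tested genes it called 40, 84 and 68 lower in these settings, in that order, in place of 310. With all 6 libraries, 15.1% of tested genes were lower at an unadjusted p under 0.05. Without the filter on low values, Ier5 was the 1 gene of the list still called. Dusp1, whose phosphatase switches off the kinases upstream of AP-1, was at 74.73, 82.55 and 105.14 FPKM in CCR3 skin and 68.89, 60.94 and 47.40 FPKM in VEH skin, and it did not pass (adjusted p = 0.0931). Dusp1 was chosen with its values known. Heat shock genes, another group that responds to stress, had none of 10 called by limma (median 0.01), also with 0 of 10 at an unadjusted p under 0.05. At that threshold 15.1% of all tested genes were lower and 8.03% higher. Whether the handling of the tissue differed between libraries was not tested.

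**Figure D4:**
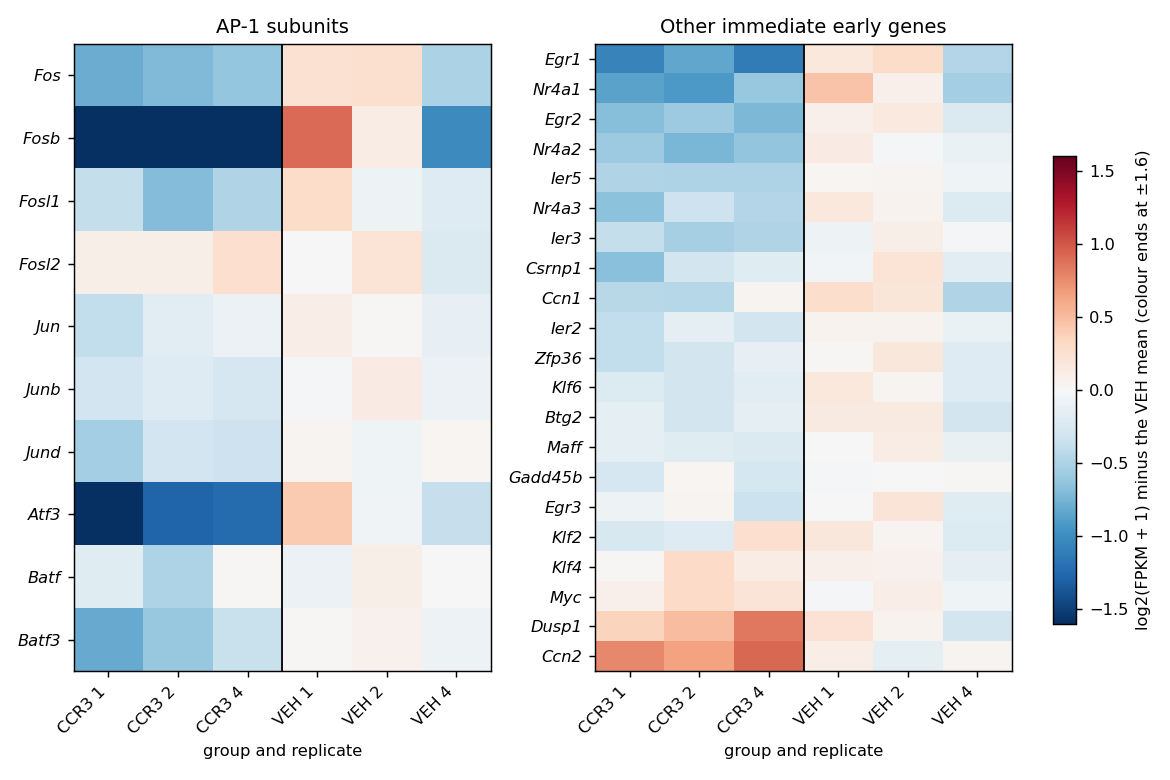
Difference of log2(FPKM + 1) from the VEH mean (colour, blue below and red above 0) in each library, for the AP-1 subunit genes (left) and the 21 other tested immediate early genes (right, sorted by fold change), with CCR3 libraries left of VEH libraries. Fosb and Atf3 are the darkest rows in CCR3, VEH replicate 4 is bluish for many early genes, and Ccn2 and Dusp1 are red in CCR3.

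Of 24 tested textbook targets of AP-1, 8 fell and none rose (median -0.25), against 2.37% and 1.36% of all tested genes. The 3 with the smallest p were cytokine genes: Il6 averaged 11.5 FPKM in CCR3 skin and 24.0 FPKM in VEH skin (limma adjusted p = 0.00182), Il1b 112.6 FPKM in CCR3 skin and 247.1 FPKM in VEH skin (0.00255), and Tnf 1.74 FPKM in CCR3 skin and 4.22 FPKM in VEH skin (0.00635). The other 5 that fell were Mmp12, Ccl2, Ptgs2, Cxcl2 and Hbegf, named because they complete the count. Il6, Il1b and Tnf kept their calls without each of the 6 libraries in turn, Mmp12 without 5, Ccl2 and Ptgs2 without 3, Cxcl2 without 2 and Hbegf without 1. The protease genes Mmp3, Mmp9, Mmp10 and Mmp13, the classical targets, did not pass (adjusted p from 0.350 to 0.571), and were chosen after their values were seen. The number of targets called lower was 5 without CCR3 replicate 1, 4 without each VEH library in turn and 3 (Il6, Il1b and Tnf) without a filter on low values. Over all genes, 310 were called lower with all libraries and 84 without CCR3 replicate 1. The number was 40, 68 and 46 without VEH replicates 1, 2 and 4, and 50 without the filter. Of 13 tested partners and dependent genes of Batf and Batf3, 1 fell (Il4, 6.49 FPKM in CCR3 skin and 13.6 FPKM in VEH skin) and none rose (median -0.06). At an unadjusted limma p under 0.05, 15.1% of all tested genes were lower and 8.03% higher. Of these 13 genes, 6 were under it, Il4, Icos, Irf4, Irf8 and Itgae lower and Id2 higher. Irf4 (log2 fold change -0.35), Irf8 (-0.39) and Itgae (-0.27) are named because they complete this count. Il4 kept its call without 2 of the 6 libraries in turn and lost it without the filter. Icos, a costimulatory receptor of T cells, averaged 5.36 FPKM in CCR3 skin and 7.21 FPKM in VEH skin and did not pass (adjusted p = 0.0778). Id2, a factor that dendritic cell development also needs, averaged 111.4 FPKM in CCR3 skin and 86.6 FPKM in VEH skin, with every CCR3 value above every VEH value, and did not pass either (log2 fold change 0.35, adjusted p = 0.0951).

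Genes with the most similar profiles were found by the root mean square difference of log2(FPKM + 1) over the 6 libraries, after each profile was centred on its mean. For Fos, whose own profile had a root mean square of 0.436, the nearest included Ifit1 (0.109), Apol9a (0.121), Nr4a1 (0.136) and Egr2 (0.158). Ifit1 and Apol9a have close gene copies, so their values are uncertain. All 4 had their lowest VEH value in replicate 4, as Fos had, which their choice by likeness to Fos over the same libraries favours. For Atf3 (own 0.731) the nearest were Cd83, Has2, Nfkbie, Il1b and Ccl7, at 0.243 to 0.259. For Fosb (own 1.52) even the nearest genes were far, at 0.909 for Chil4, which has a near-identical copy, and 0.948 to 0.988 for Ccl7, Has2, Egr1 and Cd83. For Jun (own 0.158) the nearest, Usp11, Cd96, Arhgef40, Zdhhc8 and Tor3a, lay within 0.0350 to 0.0443, and none of these was called in the comparison.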

How the data were processed

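Messenger RNA of 6 skin libraries was purified on oligo(dT) beads and sequenced from 1 end over 50 bases, per the labels' protocols. HISAT is the aligner that the submitters' processing notes name. Its version, the build, annotation, counting and strand handling are not given in those sources, so antisense overlap and close gene copies could not be resolved. The authors deposited FPKM, rounded to 2 decimals, for 18824 genes. Among 2738 low values 9.42% were whole multiples of the gene's lowest value (tolerance 0.05, 10% by chance), so no read depth was recovered. In 25 rows a symbol turned into a date was restored by Entrez number.

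Groups follow the titles. Genes reaching 1 FPKM in 3 libraries (13063) were tested on log2(FPKM + 1) with limma 3.58.1 in R 4.3.3 (variance trend, 2-sided, Benjamini-Hochberg, threshold 0.05). Python 3.11.15, scipy 1.17.1 and matplotlib 3.10.9 were used for the rest. Fold changes on this scale understate those of low genes. The comparison of CCR3 with VEH was simulated in 5 draws over 13063 genes, with 200 changed. There limma recovered 81.5% of genes changed by 0.5, 99.4% by 1 and 100% by 2 on the log2 scale, and 7.1% of calls were unchanged genes. These draws used independent normal noise with limma's own spreads and no shift shared by the genes of a library. They check the code, and their shares need not hold for the real libraries. Alternatives were both scalings, no filter or one at 3 FPKM, a pseudocount of 0.1, no variance trend, a replicate block and each library left out.

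The members and gene lists were chosen with earlier results of these data known. Of 162 list entries 161 were found, 2 by another name. Named are the 10 members, the 3 genes of smallest p in each list (in marker and heat shock lists, those of them under an unadjusted p of 0.05) and the 5 nearest profiles of Fos, Fosb, Atf3 and Jun; others are said to be chosen after seeing values. Of the genes this rule names, 2 are not reported here. Promoter sequences are from RefSeq, GRCm38.p6. They were given for 9 of the 10 genes.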

Additional observations from a re-analysis of the deposited data

How the results depend on the processing

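The number of AP-1 subunit genes called lower by limma was 4. It was 2 with equal FPKM sums and 1 with the replicate block, where Fosb kept its call and Atf3 lost it. Without a filter the number was 0, where 7 were lower at an unadjusted p under 0.05. With 1 library left out the number ran from 1 to 4. No subunit gene was called higher under any of these settings, and Batf3 was not tested with the filter of 3 FPKM. Over all genes, the counts lower and higher were 173 and 158 with equal sums, 50 and 42 without a filter, 144 and 89 with the replicate block, and 40 to 1083 and 28 to 558 with 1 library left out. The cause of these changes was not tested. The median log2 fold change of the subunit genes moved by less than the spread between replicates under every setting tried, and no subunit gene changed sign. Same-numbered libraries did not deviate together (r across genes = -0.064, 0.084 and -0.030 for replicates 1, 2 and 4), and not every library correlated best with its own number, so the replicate block was read as a setting only. Without 1 library, the difference in the log2 ratio of Junb to Jun ran from -0.10 to 0.042 and turned its sign without CCR3 replicate 4 or VEH replicate 2 (0.019), and the log2 fold change of Mmp9 ran from -0.39 to 0.013 and turned without CCR3 replicate 2. The depth is unknown, so counting error could not be given for any gene, including Fosb and Batf3, the lowest of the 10 genes in CCR3.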
